A study of Mus musculus with 87 samples.

Results

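The samples described here are the embryonic faces of the B7 line of mice, in which a single boundary between topologically associating domains (TADs) was deleted on chromosome 3. They were chosen by their labels as all RNA-seq libraries of locus B7 whose source is embryonic face, which gave 4 of the 64 RNA-seq samples and of the 87 samples of all kinds in the series. Faces came from embryos of the FVB strain at embryonic day 11.5 (E11.5), 2 homozygous for the deletion and 2 wild-type. The study's methods describe a line from a single founder, wild-type littermates from crosses of heterozygous mice, and biological replicates. A result of this line therefore comes from 1 deletion allele in 1 strain. The labels carry the codes SR9_A1 and SR9_A3 for the homozygous faces and SR9_A25 and SR9_A26 for the wild-type ones. What the codes stand for is not stated, and their part in the differences between the groups was not tested. Total counts were 19700993 and 23701203 in homozygous faces 1 and 2, and 19682621 and 23212447 in wild-type faces 1 and 2. The 12 faces of lines B3, B5 and B6, also taken at E11.5 in 2 homozygous and 2 wild-type embryos per line, served for comparison. Codes of B6 also lie apart by genotype (SR3_A5 and SR3_A7 homozygous, SR3_A27 and SR3_A28 wild-type). Those of B3 (SR12_A9 to SR12_A15) and B5 (SR13_A17 to SR13_A20) follow one another.

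TADs are stretches of a chromosome whose parts contact each other more than they contact the rest. The boundaries between them are often bound by CTCF, a zinc finger protein at which the loop-extruding cohesin complex halts, and they are thought to keep the enhancers of one domain from the promoters of the next. The study shows Neurog2 beside B7. Neurog2 encodes a basic helix-loop-helix factor that starts neuronal differentiation in the neural tube and in cranial ganglia. The question put to the faces is whether this and other genes were expressed at another level without the boundary.

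The deletion covers chr3:127970279-128004520 (mm10), which is 34.2 kb with a GC content of 40.4%. No gene of the deposited counts that could be placed overlaps it. The 4 guide targets that set its ends are shown because they define the allele, each 5′ to 3′ on its own strand with the PAM, the motif that Cas9 needs beside its target, in capitals.
5′ guide 1, minus strand, chr3:127970296-127970318: tcactacatcgagtagaaccCGG
5′ guide 2, plus strand, chr3:127970215-127970237: gacatcagttgtagaaaacaCGG
3′ guide 1, plus strand, chr3:128004502-128004524: atctcaagttaagggtctgtGGG
3′ guide 2, plus strand, chr3:128004501-128004523: catctcaagttaagggtctgTGG
Each target occurred 1 time on chromosome 3. The 3′ targets are shifted by 1 base from each other and would be cut 2 or 3 bases from the right end of the deletion. The 5′ guides would be cut 23 and 47 bases from its left end, one inside the deleted stretch and one outside it. Joining the 30 reference bases to the left of the interval (lower case) with the 30 to its right (capitals) shows the junction that these coordinates imply on the plus strand.
joined flanks: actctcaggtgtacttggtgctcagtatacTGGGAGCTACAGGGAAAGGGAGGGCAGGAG
These bases are of the reference strain, not of FVB, and no read of the junction was examined.

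The libraries were checked against their labels before genes were compared. All 12 of 12 defining markers of the face were counted in every face, among them Twist1, Prrx1, Alx1 and Barx1 of the facial mesenchyme and Epcam and Trp63 of its epithelium, at 7.06 to 400 TPM (a level scaled by gene length). The liver gene Alb had 0 counts in all 4 faces, and the liver gene Afp had 0 to 6. The heart gene Nppa had 0 to 1. Myh6, also of the heart, had 0 and 9 counts in homozygous faces 1 and 2 and 8 and 16 in wild-type faces 1 and 2. Transcripts of the nervous system were present in every face and in unequal amounts. En1, a gene of the midbrain and anterior hindbrain, had 57 and 32 counts in homozygous faces 1 and 2 and 43 and 15 in wild-type faces 1 and 2, so that the groups overlapped. Hoxb3, a gene of the hindbrain and neck, had 331 and 654 counts in homozygous faces and 148 and 83 in wild-type ones. CPM values below express a gene's counts relative to its library, after TMM scaling. All 4 faces held 5668 to 7856 counts of Xist and 0 to 2 of each gene read from the Y chromosome, so sex by these genes was alike in both B7 groups. Of the 12 faces of other lines 5 expressed Y-linked genes, 1 in each genotype of B5 and B6 and, in B3, 1 homozygous face and 0 wild-type ones, so sex was not balanced in B3. Its part in the comparisons with other lines was not tested.

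Across 15184 genes that passed the filter on low counts, few differed between homozygous and wild-type faces by edgeR's quasi-likelihood test. At a Benjamini-Hochberg adjusted p under 0.05 it called 5 genes, 0.0329% of those tested, of which 4 were higher and 1 was lower in homozygous faces. DESeq2, run on the same genes, called 89 (0.586%), 45 higher (0.296%) and 44 lower (0.29%), and these included all 5 genes of edgeR. The count hung on single faces, since edgeR called 262 and 634 genes without homozygous faces 1 and 2, and 4 and 1 without wild-type faces 1 and 2. The median log2 fold change over all genes was 0.00. Groups that do not overlap were common with 2 faces on each side, since 38.9% of all genes tested had both homozygous values above or both below the wild-type ones. In counts simulated from these 4 libraries with 200 altered genes, edgeR found 78% of those altered by 1 on the log2 scale and 96% of those altered by 2. It made 16 false calls in 190, and DESeq2 made 14 in 184. These counts were drawn with edgeR's own estimates of the spread. Both tools made similar numbers of calls in them, unlike the 5 and 89 in the faces. The shares found may therefore not hold for the real counts. Below, a gene is said to have risen or fallen only where edgeR called it, and calls of DESeq2 alone are named as such. With 2 embryos per group, p-values rest on the spread between these few faces, which both tools estimate for each gene partly from other genes.

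Genes near the deletion showed no difference that passed either test. The protein-coding genes nearest to it are all on one side. Among genes of the deposited counts, 8 protein-coding ones within 1 Mb lie on the centromere side and 0 on the telomere side. Of all genes in these counts, GENCODE places 20 within 1 Mb. Of these, 10 had no count in any of the 4 faces, and 8 passed the filter and were tested. edgeR and DESeq2 both called 0 of these 8, against 0.0329% and 0.586% of all genes, and 0 had an unadjusted p under 0.05 in edgeR, against 7.55% of all genes. Their log2 fold changes ran from -0.16 to 0.74 with a median of 0.04, 5 higher and 3 lower (50.6% and 49.4% of all genes), and the lowest adjusted p in edgeR was 0.793.

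Neurog2 lies at chr3:127633135-127635631 on the plus strand, 334.65 kb from the deletion. Its level was 16.97 and 3.71 CPM in homozygous faces 1 and 2, and 6.54 and 5.71 CPM in wild-type faces 1 and 2. The 2 homozygous faces thus held the highest and the lowest value of the 4, with both wild-type faces between them. The log2 fold change was 0.74 (SE 0.57, 95% interval -0.59 to 2.08, edgeR adjusted p = 0.793, DESeq2 adjusted p = 1.00). The direction rested on homozygous face 1. The log2 fold change was -0.72 without that face and 1.47 without homozygous face 2, each from a lone homozygous face. With no filter on low counts Neurog2 passed in edgeR (0.74, adjusted p = 0.027). It did not pass in the same unfiltered counts with edgeR's newer dispersion estimate (0.71, adjusted p = 0.795).

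Of 27 tested genes of cranial neurogenesis, the process in which Neurog2 acts, 0 were called by either tool and the median was 0.14. In edgeR 3 had an unadjusted p under 0.05, all higher, against 3.62% of all genes.

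The other neighbors were close to even. Fam241a, whose nearest end is the closest of the tested genes to the deletion, was at 5.84 and 6.16 CPM in homozygous and 5.27 and 6.39 CPM in wild-type faces (log2 fold change 0.04, interval -0.44 to 0.52). Larp7, which encodes a protein that binds the 7SK RNA, was at 90.9 and 82.5 CPM against 82.8 and 86.2 CPM (0.04, -0.17 to 0.24). Ank2, which encodes an ankyrin that links membrane proteins to the spectrin skeleton, was at 57.5 and 57.1 CPM against 53.0 and 65.8 CPM (-0.05, -0.33 to 0.22). In each of these 3 genes the groups overlapped.

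Ap1ar, an adaptor of endosomal transport, was at 73.5 and 65.0 CPM in homozygous and 68.3 and 71.3 CPM in wild-type faces, again with overlap (-0.01, -0.23 to 0.21). Zgrf1, a zinc finger helicase gene, was at 20.7 and 21.7 CPM against 17.1 and 21.7 CPM (0.13, -0.22 to 0.47). Tifa and Alpk1, which work together in the response to bacterial sugars, had groups that did not overlap but small differences that neither tool called. Tifa was at 1.83 and 1.94 CPM against 1.69 and 1.37 CPM (0.30, -0.48 to 1.09), and Alpk1 at 1.52 and 1.56 CPM against 1.69 and 1.76 CPM (-0.16, -0.94 to 0.62). Tifa and Ap1ar overlap over 25158 bases on opposite strands, and since no strand setting is stated their reads may not be fully told apart.

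Wider windows added genes but no call. Within 2 Mb 17 genes were tested and 2 had an unadjusted p under 0.05, and within 5 Mb 41 were tested and 4 had one, beside 7.55% of all genes. The 4 are given as values only. Both tools called 0 of these 41. The gene with the largest difference was Enpep, which encodes the aminopeptidase that cleaves angiotensin II. It was low in all faces, with 2 and 7 counts in homozygous and 14 and 13 in wild-type ones (log2 fold change -1.60, interval -3.16 to -0.04, edgeR adjusted p = 0.648). Lef1, a transcription factor of the Wnt pathway, was at 58.6 and 75.7 CPM against 92.5 and 97.0 CPM (-0.49, interval -0.79 to -0.20, edgeR adjusted p = 0.439). Dkk2, a secreted Wnt modulator, was at 31.8 and 37.8 CPM against 48.9 and 44.9 CPM (-0.43, interval -0.70 to -0.15, edgeR adjusted p = 0.495). Gar1, part of the complex that makes pseudouridine in RNA, was at 89.2 and 70.7 CPM against 65.6 and 65.0 CPM (0.29, interval 0.01 to 0.57, edgeR adjusted p = 0.644).

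**Figure D1:**
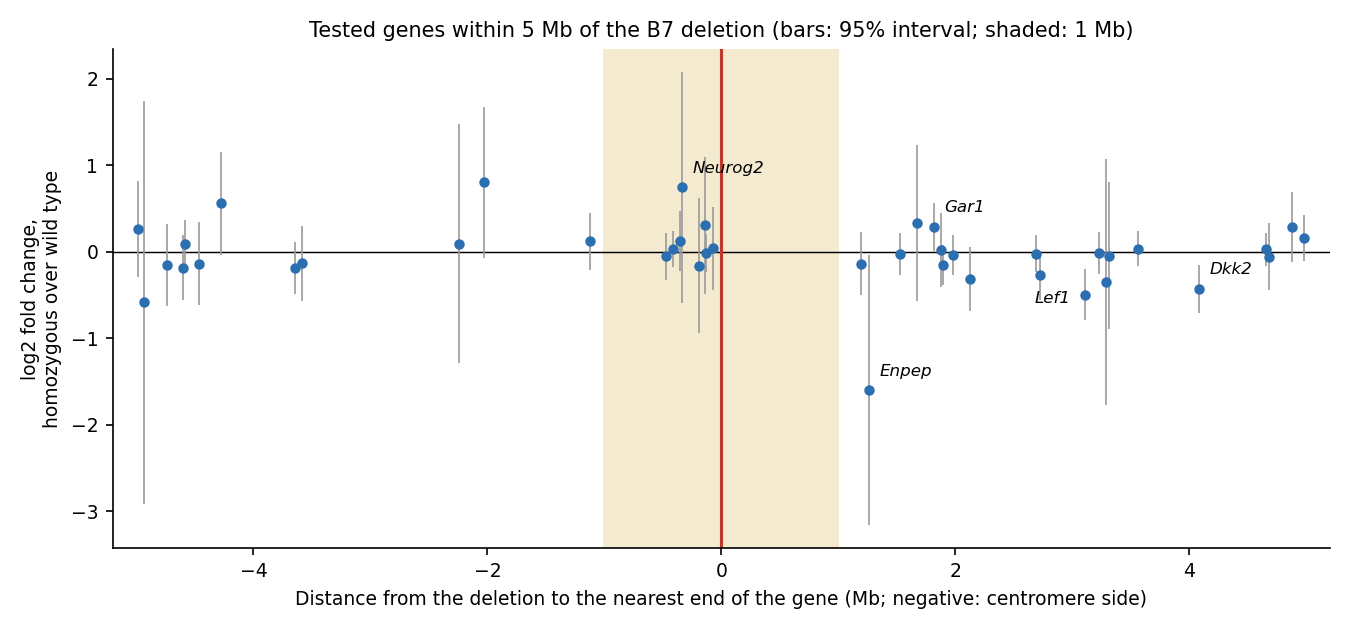
Log2 fold change, homozygous over wild type, of the 41 tested genes within 5 Mb of the deletion (vertical axis) against the distance in Mb from the deletion to the nearest end of the gene (horizontal axis, centromere side negative). Points are genes, bars are 95% intervals and the shaded band is the 1 Mb window; the 8 genes in the band all lie on the centromere side and all have intervals that include 0.

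The 5 genes that edgeR called lie on other chromosomes or on the mitochondrial genome, and 4 of them are described here. Tbx20 (chr9:24718138-24774303), a T-box factor of the heart that is also expressed in branchiomotor neurons of the hindbrain, was at 7.47 and 7.38 CPM in homozygous faces and 0.562 and 0.815 CPM in wild-type faces. It rose 10.6-fold, a log2 fold change of 3.40 (SE 0.29, interval 2.73 to 4.08). Its 2 homozygous values lay close together and well above the wild-type ones.

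Spon1 (chr7:113765998-114043370), which encodes F-spondin, a matrix protein of the floor plate that guides axons, was at 74.9 and 73.9 CPM in homozygous and 34.7 and 28.02 CPM in wild-type faces. It rose 2.38-fold (log2 1.25, SE 0.12, interval 0.97 to 1.52). Hbb-bh1 (chr7:103841637-103843164), an embryonic beta-like globin of primitive red cells, was at 996 and 932 CPM against 407 and 477 CPM, and rose 2.18-fold (log2 1.12, SE 0.10). The homozygous faces stood apart from the wild-type faces in each of these genes, by more than the replicates differed from each other.

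The gene that fell (0.00659% of those tested) was mt-Nd6, a subunit of respiratory complex I and the 1 protein gene on the light strand of the mitochondrial genome (chrM:13552-14070). It was at 112 and 103 CPM in homozygous and 229.9 and 215 CPM in wild-type faces, 2.07-fold lower (log2 fold change -1.05, SE 0.09, interval -1.26 to -0.84). It overlaps mt-Nd5 by 14 bases on the opposite strand, and the nuclear genome carries copies of mitochondrial sequence, so its reads may be shared. For these 4 genes edgeR gave an adjusted p of 0.0252, and DESeq2 gave between 3.5e-22 for Hbb-bh1 and 1.27e-10 for Tbx20. The calls depended on which samples set the spread. All 4 were lost when the 16 faces of 4 lines were fitted together (adjusted p 0.325 to 0.414, edgeR) and when the wild-type faces of all 4 lines were the controls (0.108 to 0.183, edgeR). Spon1 alone was kept without wild-type face 1 (edgeR adjusted p = 0.0432) and none of the 4 without wild-type face 2 (0.0925 for each, edgeR), while all 4 were kept without either homozygous face.

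**Figure D2:**
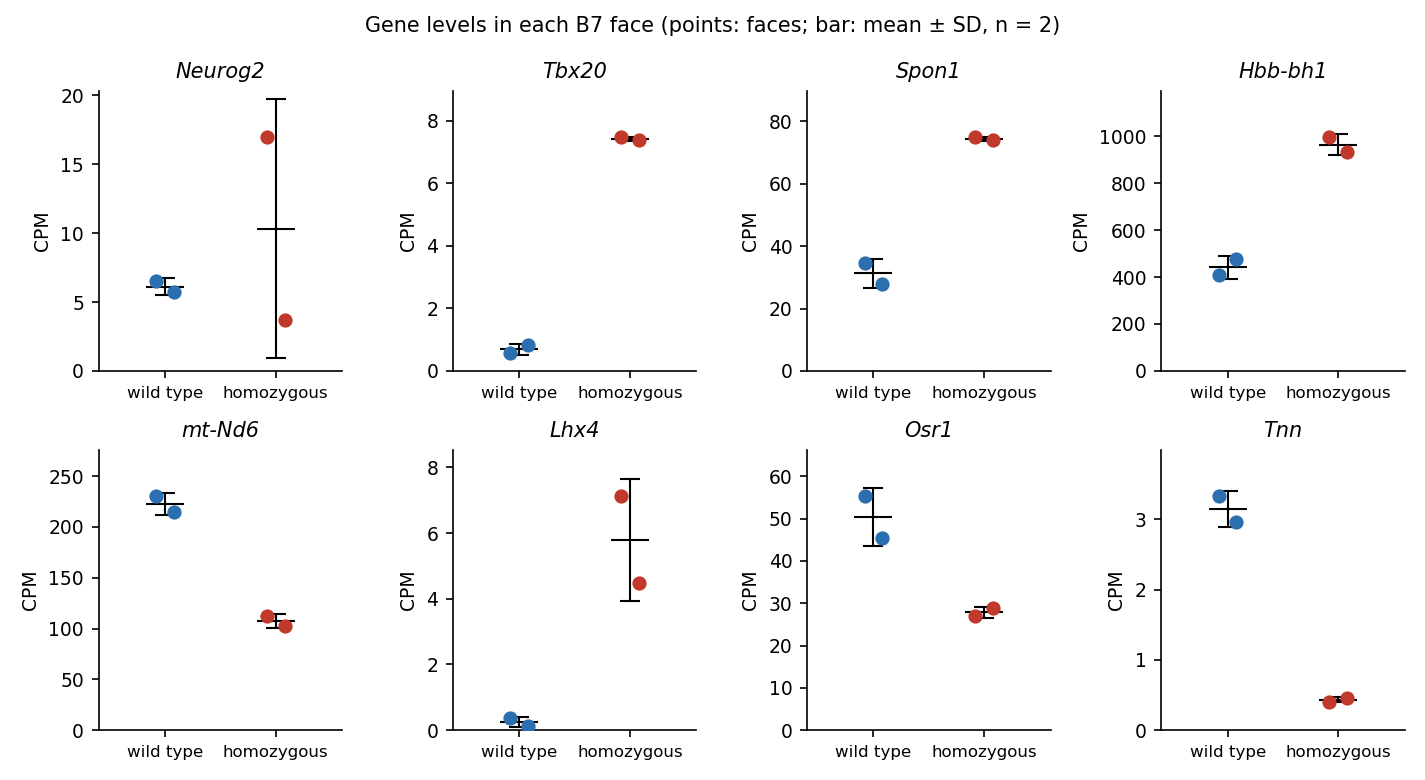
Level in CPM (vertical axes, from 0) of 8 genes in the 2 wild-type (blue) and 2 homozygous (red) B7 faces, with the mean and SD as bars. Neurog2, near the deletion, overlaps between the groups, while Tbx20, Spon1 and Hbb-bh1 are higher and mt-Nd6 is lower in both homozygous faces; Lhx4 (higher), Osr1 and Tnn (both lower) were called by DESeq2 alone.

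Motor neuron and ventral hindbrain genes were the list with the most genes called higher in homozygous faces, by either tool. Of 30 tested members edgeR called 2, among them Tbx20, both higher, against 0.0263% of all genes. DESeq2 called 8, all higher, against 0.296%, and 15 had an unadjusted p under 0.05 in this direction, against 3.62%. The list's median log2 fold change was 0.86, beside 0.00 over all genes, with 23 members fitted higher and 7 lower. The list had been chosen with these calls known, and all the other lists with earlier results of these data known. The counts of every list are a description. In bulk tissue a change in the number of cells of a type and a change in RNA per cell cannot be told apart.

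Lhx4, a LIM homeodomain factor of motor neurons, was at 7.11 and 4.47 CPM in homozygous and 0.358 and 0.129 CPM in wild-type faces. Its log2 fold change of 4.58 (SE 0.49) just missed the threshold in edgeR (adjusted p = 0.0508) and was called by DESeq2 (2.24e-09). Nkx6-1, which patterns the ventral neural tube, was at 18.5 and 9.32 CPM against 2.25 and 1.16 CPM, called by DESeq2 (adjusted p = 1.07e-10) and not by edgeR (0.137). In both genes homozygous face 1 held the highest value.

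Slc18a3, the vesicular acetylcholine transporter, was at 3.91 and 4.85 CPM in homozygous and 1.33 and 0.944 CPM in wild-type faces (log2 fold change 1.95, DESeq2 adjusted p = 0.0171, edgeR 0.176). Onecut3, a factor of early motor neurons and interneurons, was at 8.89 and 4.09 CPM against 1.84 and 2.02 CPM (1.74, DESeq2 0.0242, edgeR 0.366). Nkx6-2 and Ret, a receptor of motor and enteric neurons, were also called higher by DESeq2. Of the 30 members, 20 had both homozygous values above the wild-type ones and 3 had both below, against 19.9% and 19% of all genes, and the summed level of the list was 421 and 396 CPM in homozygous against 332 and 318 CPM in wild-type faces.

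Hox genes, which mark the hindbrain and trunk and are silent in most of the face, were low throughout, and 17 of 39 passed the filter. Of these, edgeR called 0 and DESeq2 called 1, Hoxb3. It was at 16.8 and 27.6 CPM in homozygous and 7.57 and 3.56 CPM in wild-type faces (log2 fold change 2.01, SE 0.36, DESeq2 adjusted p = 9.2e-07, edgeR 0.227). The list's median was 1.11, with 15 fitted higher and 2 lower, against 50.6% and 49.4% of all genes. In edgeR 7 had an unadjusted p under 0.05, all higher, against 3.62% of all genes. This median was 0.62 without homozygous face 2, and 1.95 and 0.49 without wild-type faces 1 and 2. Hoxb3, the marker of hindbrain read in these libraries, was thus higher in both homozygous faces and moved with genotype. Its part in the differences of the neural lists was not tested.

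Genes of the floor plate and of axon guidance were evenly split in sign, but those that either tool called were higher. Of 33 tested, edgeR called 1 higher (Spon1), DESeq2 called 5 higher and none lower, and the median was 0.03 with 17 fitted higher and 16 lower. In edgeR 9 had an unadjusted p under 0.05, all higher, against 3.62% of all genes. Groups did not overlap in 12 that were higher and 3 that were lower, against 19.9% and 19%. Foxa2, the forkhead factor of floor plate cells, was at 5.18 and 4.39 CPM in homozygous and 1.43 and 1.42 CPM in wild-type faces (log2 fold change 1.74, DESeq2 adjusted p = 0.0236, edgeR 0.167). Vtn, which encodes vitronectin, was at 27.4 and 20.4 CPM against 8.44 and 7.25 CPM (1.61, DESeq2 1.23e-08, edgeR 0.0652). Slit1, a repellent of axons, was at 18.3 and 15.2 CPM against 4.76 and 6.95 CPM (1.51, DESeq2 1.83e-05, edgeR 0.137). The fifth was Ntn1, the netrin of the floor plate.

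Markers of neurons in general leaned the same way with smaller differences. Of 32 tested, edgeR called 0 and DESeq2 called 6 higher and none lower, against 0.296% and 0.29% of all genes. In edgeR 15 had an unadjusted p under 0.05, all higher, against 3.62%, and 28 were fitted higher, against 50.6%. The median was 0.26 (0.44 without homozygous face 2), and the list's median was also positive in lines B3, B5 and B6. The neurofilament genes overlap on opposite strands and may share reads. Nefl was at 204 and 210.0 CPM in homozygous against 137 and 108 CPM in wild-type faces (log2 fold change 0.76, DESeq2 adjusted p = 2.3e-06, edgeR 0.157), and Nefm at 363 and 378 against 249 and 215 CPM (0.67, DESeq2 3.93e-07, edgeR 0.137). Chl1, a cell adhesion gene of growing axons, was at 12.5 and 8.60 CPM against 2.91 and 3.43 CPM (1.72, DESeq2 0.000118, edgeR 0.137), and Rab3c, a gene of synaptic vesicles, at 14.1 and 7.89 against 3.83 and 4.12 CPM (1.46, DESeq2 0.00612, edgeR 0.311). Tubb3, the beta tubulin of all young neurons, was at 455 and 374 CPM against 360.5 and 347 CPM and was called by neither tool (0.23, interval -0.02 to 0.48). Of 22 neural progenitor genes edgeR called 0 and DESeq2 1, the RNA-binding protein gene Lin28a (19.2 and 9.53 against 5.47 and 6.86 CPM), with 3 at an unadjusted p under 0.05 and a median of 0.18 that turned to -0.063 without homozygous face 1, was 0.41 and 0.32 without homozygous face 2 and wild-type face 2, and was 0.036 without wild-type face 1. Of 11 genes of neural crest glia neither tool called any, 1 had an unadjusted p under 0.05 and the median was 0.14, with 0.36 and -0.0063 without homozygous faces 1 and 2 and 0.26 and 0.014 without wild-type faces 1 and 2.

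Several further genes that DESeq2 called higher belong to no list and were low in wild-type faces. C1ql3, which encodes a synaptic protein of the C1q family, was at 4.47 and 5.06 CPM in homozygous and 0.920 and 1.24 CPM in wild-type faces (log2 fold change 2.13, DESeq2 adjusted p = 0.00288, edgeR 0.137). Vxn, which promotes neuronal differentiation, was at 7.67 and 2.78 CPM against 1.38 and 1.07 CPM (2.08, DESeq2 0.0238), and Lamp5, a membrane protein gene of neurons, at 7.01 and 2.11 against 1.02 and 0.729 CPM (2.37, DESeq2 0.0214). In Vxn and Lamp5 homozygous face 1 was more than 2 times as high as homozygous face 2. Evx2 and Nkx1-1, homeobox genes that are active in the spinal cord, had 0 counts in both wild-type faces. Evx2 had 39 and 16 counts in homozygous faces, at least 18.1-fold higher, and Nkx1-1 had 25 and 14, at least 12.9-fold higher, both against a floor of 3 counts over the 2 wild-type faces. edgeR did not call them (adjusted p = 0.311 for each) and DESeq2 did (0.00915 and 0.0402).

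**Figure D3:**
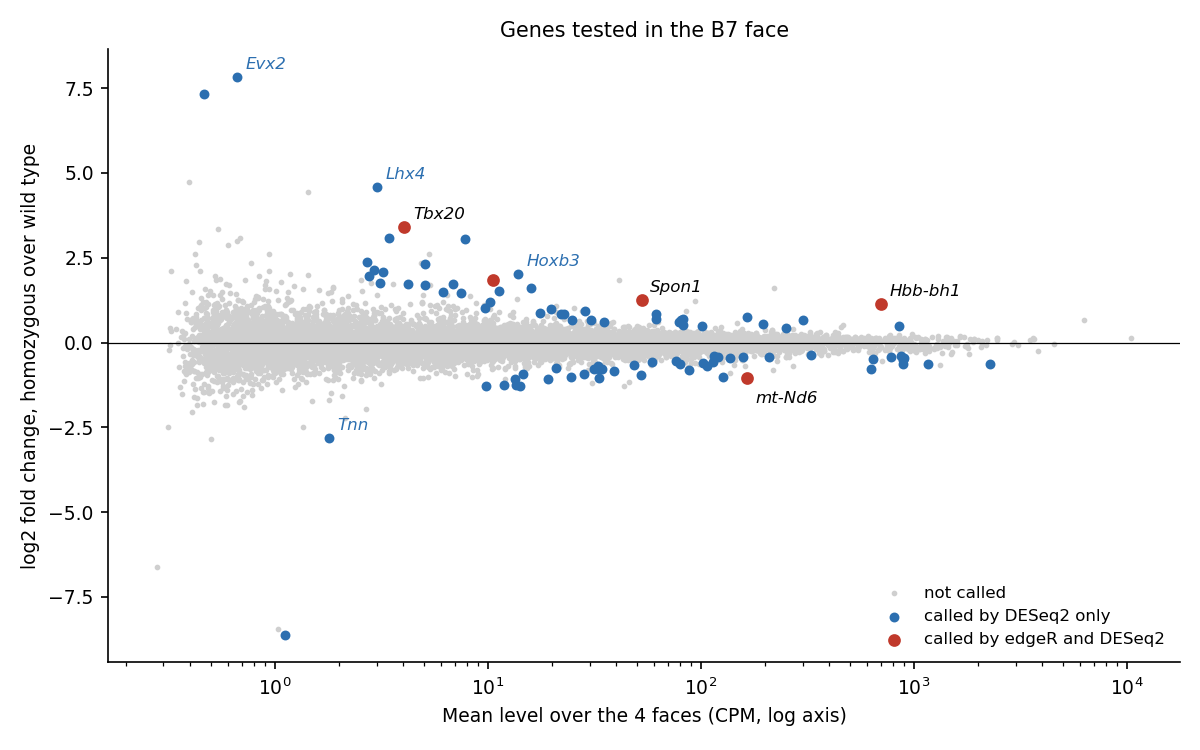
Log2 fold change, homozygous over wild type (vertical axis), against the mean level over the 4 faces in CPM (horizontal log axis) for the 15184 genes tested. Red points are the 5 genes called by edgeR and DESeq2, blue points those called by DESeq2 alone and grey points those not called; Lhx4, Hoxb3 and Evx2 are among the blue points above 0 and Tnn among those below.

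Transcription factors of the facial mesenchyme were mostly fitted lower in homozygous faces, but few passed a test. edgeR called 0 of 41 tested, DESeq2 called 5 lower and none higher, against 0.29% of all genes, and 19 had an unadjusted p under 0.05 in this direction, against 3.94%. The median was -0.27, with 32 members fitted lower and 9 higher, and 25 had both homozygous values below the wild-type ones, against 19% of all genes. The summed level was 3121 and 3263 CPM in homozygous against 3750.0 and 3674 CPM in wild-type faces.

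Osr1 and Osr2, odd-skipped related factors of the palate and jaw mesenchyme, were among those DESeq2 called. Osr1 was at 26.9 and 28.8 CPM in homozygous and 55.2 and 45.4 CPM in wild-type faces (log2 fold change -0.85, SE 0.12, DESeq2 adjusted p = 7.17e-05, edgeR 0.141). Osr2 was at 7.26 and 8.90 CPM against 22.3 and 16.002 CPM (-1.24, SE 0.20, DESeq2 0.000423, edgeR 0.176). In both genes the 2 homozygous faces lay below both wild-type faces.

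Gsc, the goosecoid factor of the lower jaw, was at 23.3 and 23.2 CPM in homozygous and 45.1 and 34.2 CPM in wild-type faces (-0.77, DESeq2 adjusted p = 0.00598, edgeR 0.311). Pitx1, a homeodomain factor of the first branchial arch and the hindlimb, was at 88.4 and 74.7 CPM against 135 and 112 CPM (-0.60, DESeq2 0.00394, edgeR 0.311). Dlx1 was the fifth gene called. Twist1 and Prrx1, the list's members with the highest CPM, were called by neither tool. Twist1 was at 303 and 388 CPM against 420.1 and 407 CPM (-0.26, interval -0.54 to 0.02), and Prrx1 at 313 and 353 CPM against 367 and 388 CPM (-0.18, interval -0.40 to 0.04).

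Of 16 tested Nfi and Klf factors edgeR called 0 and DESeq2 called 4, all lower, against 0.29% of all genes. In edgeR 2 were higher and 5 lower at an unadjusted p under 0.05, against 3.62% and 3.94%. The list median was -0.13. This list too was chosen with earlier results of these data known, and its counts are a description. Nfib, a nuclear factor I gene, was at 23.1 and 27.1 CPM in homozygous and 44.8 and 41.4 CPM in wild-type faces (-0.78, DESeq2 adjusted p = 0.000816, edgeR 0.157). Nfia was at 15.2 and 15.8 CPM against 25.5 and 26.6 CPM (-0.75, DESeq2 0.0146, edgeR 0.176), and Nfix at 5.18 and 8.69 against 21.2 and 12.3 CPM (-1.26, DESeq2 0.0158, edgeR 0.433). Klf4, a Krüppel-like factor, was at 6.96 and 9.36 CPM against 24.3 and 15.96 CPM (-1.29, DESeq2 0.000532, edgeR 0.267).

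Genes of the extracellular matrix had the lowest median of the lists after the mitochondrially encoded genes, -0.41. Of 42 tested, edgeR called 0 and DESeq2 called 5 lower and 1 higher, 20 had an unadjusted p under 0.05 in the lower direction and 39 were fitted lower. Over all genes DESeq2 called 0.29% lower and 0.296% higher. Such a p in the lower direction was found in 3.94%, and 49.4% were fitted lower. The median was -0.24 without homozygous face 1 and -0.62 without homozygous face 2. Tnn, which encodes tenascin N of the osteogenic matrix, was at 0.406 and 0.464 CPM in homozygous and 3.32 and 2.96 CPM in wild-type faces (log2 fold change -2.83, SE 0.37, DESeq2 adjusted p = 0.00231, edgeR 0.127). Fbn1, the fibrillin of elastic microfibrils, was at 27.7 and 42.7 CPM against 66.4 and 71.3 CPM (-0.96, DESeq2 8.77e-05, edgeR 0.297). Col6a3, a chain of collagen VI, was at 15.4 and 27.6 CPM against 45.5 and 44.4 CPM (-1.05, DESeq2 0.000908, edgeR 0.361), with homozygous face 1 the lower of the pair. Sned1 and Igsf10 were the other two called lower.

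Hapln1, which links hyaluronan to proteoglycans, went the other way at 25.2 and 27.5 CPM in homozygous against 11.2 and 15.1 CPM in wild-type faces (1.00, DESeq2 adjusted p = 0.000908, edgeR 0.18). The list's members with the highest CPM, Col1a2 and Col3a1, were called by neither tool. Col1a2 was at 439.7 and 712 CPM against 878 and 789.8 CPM, and the 2 homozygous faces differed from each other by as much as the groups did. Col3a1 was at 639 and 809 CPM against 819 and 782 CPM, with overlap.

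Red cell genes were mostly fitted higher in homozygous faces, 16 of 22 tested against 6 lower, with a median of 0.19. edgeR called 1 higher, Hbb-bh1, and DESeq2 called 2 higher, Hbb-bh1 and Tal1. In edgeR 7 were higher and 2 lower at an unadjusted p under 0.05, against 3.62% and 3.94% of all genes. Groups did not overlap in 13 that were higher and 2 that were lower, against 19.9% and 19%. Tal1, the basic helix-loop-helix factor of blood formation that is also made in ventral interneurons of the neural tube, was at 25.4 and 19.9 CPM in homozygous and 13.5 and 11.4 CPM in wild-type faces (log2 fold change 0.86, DESeq2 adjusted p = 0.0181, edgeR 0.311). The embryonic globin Hbb-y was at 3102 and 2913 CPM against 3393 and 2925.4 CPM (-0.07, interval -0.31 to 0.17), and the adult-type Hba-a1 at 1818 and 1369 CPM against 2274 and 1787 CPM (-0.35, interval -0.72 to 0.02). The share of all counts from hemoglobin genes was 0.816% and 0.779% in homozygous and 0.854% and 0.729% in wild-type faces, so the groups overlapped in the total while Hbb-bh1 differed.

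Mitochondrially encoded genes were mostly fitted lower in homozygous faces, with the lowest median of the lists at -0.57. Of 15 tested, edgeR called 1 (mt-Nd6) and DESeq2 called 7, all lower, 11 had an unadjusted p under 0.05, and 14 were fitted lower. Over all genes the shares in the lower direction were 0.00659%, 0.29%, 3.94% and 49.4%. mt-Nd5 was at 445 and 478 CPM in homozygous and 775 and 801 CPM in wild-type faces (log2 fold change -0.77, SE 0.09, DESeq2 adjusted p = 5.06e-13, edgeR 0.0562). mt-Cytb was at 967 and 846 CPM against 1445 and 1384 CPM (-0.64, DESeq2 1.07e-07, edgeR 0.152), and mt-Co1 at 2002 and 1537 against 2732 and 2776 CPM (-0.64, DESeq2 5.36e-05, edgeR 0.311). The list's transcripts made up 0.837% and 0.786% of the counts of homozygous faces and 1.15% and 1.09% of wild-type ones. The part of this share in the other differences was not tested.

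Nuclear genes for the same respiratory chain and for ribosomes showed slight shifts. Of 80 tested genes of oxidative phosphorylation edgeR called 0 and DESeq2 2 lower, Ndufa3 and Cox6c, with 12 lower at an unadjusted p under 0.05, a median of -0.15 and 68 fitted lower. Of 81 ribosomal protein genes edgeR called 0 and DESeq2 3 lower, Rps29, Rpl31 and Rps28, with 1 higher and 11 lower at an unadjusted p under 0.05, a median of -0.15 and 73 fitted lower. Over all genes DESeq2 called 0.29% lower, 3.62% were higher and 3.94% lower at such a p, and 49.4% were fitted lower. Without wild-type face 1 the medians of these lists were -0.074 and -0.044. Ribosomal protein genes have many near-identical pseudogenes, among which reads can be split. Rps29 was at 773 and 703 CPM in homozygous and 1144 and 942 CPM in wild-type faces (-0.50, DESeq2 adjusted p = 0.00254, edgeR 0.373).

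Metallothionein, glucose and hypoxia genes, of which 25 were tested, had 0 calls in edgeR and 3 higher and 1 lower in DESeq2, with 5 higher and 1 lower at an unadjusted p under 0.05 (median 0.10). Over all genes DESeq2 called 0.296% higher and 0.29% lower, and 3.62% were higher and 3.94% lower at such a p. The metal-binding Mt1 was at 41.96 and 33.1 CPM in homozygous and 19.6 and 20.1 CPM in wild-type faces (log2 fold change 0.92, DESeq2 adjusted p = 0.000224, edgeR 0.156), Mt2 was at 34.3 and 23.7 against 15.1 and 17.3 CPM (0.83, DESeq2 0.0235, edgeR 0.37), and the glucose transporter gene Slc2a3 at 58.2 and 93.2 against 48.8 and 44.8 CPM (0.70, DESeq2 0.0412, edgeR 0.495). Txnip, an inhibitor of glucose uptake that glucose induces, was lower at 27.8 and 22.5 CPM against 42.8 and 38.2 CPM (-0.69, DESeq2 0.0154, edgeR 0.311). Of 16 early embryo regulators DESeq2 called 2 higher, Lin28a and the phosphatase gene Dusp9, and edgeR 0, with 9 at an unadjusted p under 0.05 (median 0.26). Of 19 retinoic acid genes DESeq2 called 1 lower and edgeR 0, with 1 higher and 3 lower at an unadjusted p under 0.05 (median -0.14). This was Aldh1a2, which makes retinoic acid, at 11.8 and 20.6 CPM against 36.5 and 28.7 CPM (-1.001, DESeq2 0.00971, edgeR 0.429). Of 14 genes of IGF signaling and growth factor binding DESeq2 called 1 lower, the receptor gene Igf2r at 81.6 and 101 against 133 and 139 CPM, and edgeR 0, with 3 at an unadjusted p under 0.05 (median -0.18, and -0.077 and -0.075 without homozygous face 1 and wild-type face 1).

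In the remaining lists neither tool called a gene, and 4 epithelial genes (higher), 3 of skeletal muscle (lower) and 0 of the others had an unadjusted p under 0.05. Of all genes 3.62% were higher and 3.94% lower at such a p. Medians were 0.20 over 24 epithelial genes (0.46 and -0.016 without homozygous faces 1 and 2), 0.00 over 17 endothelial genes, -0.16 over 14 macrophage genes, 0.03 over 18 immediate early and heat shock genes and -0.15 over the 4 of 14 liver transcripts that passed the filter. The liver median turned to 0.086 without homozygous face 1 and to 0.085 without wild-type face 1, and was -0.48 and -0.36 without homozygous face 2 and wild-type face 2. Skeletal muscle genes had a median of -0.38 over 22, and cardiomyocyte genes -0.10 over the 6 of 15 that passed. The summed level of the muscle list was 50.5 CPM in homozygous face 1 and 179.7 CPM in homozygous face 2, and the medians without homozygous face 2 were -2.11 for skeletal muscle and -1.43 for cardiomyocytes. Homozygous face 1 was thus low in muscle transcripts, whereas homozygous face 2 was not.

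**Figure D4:**
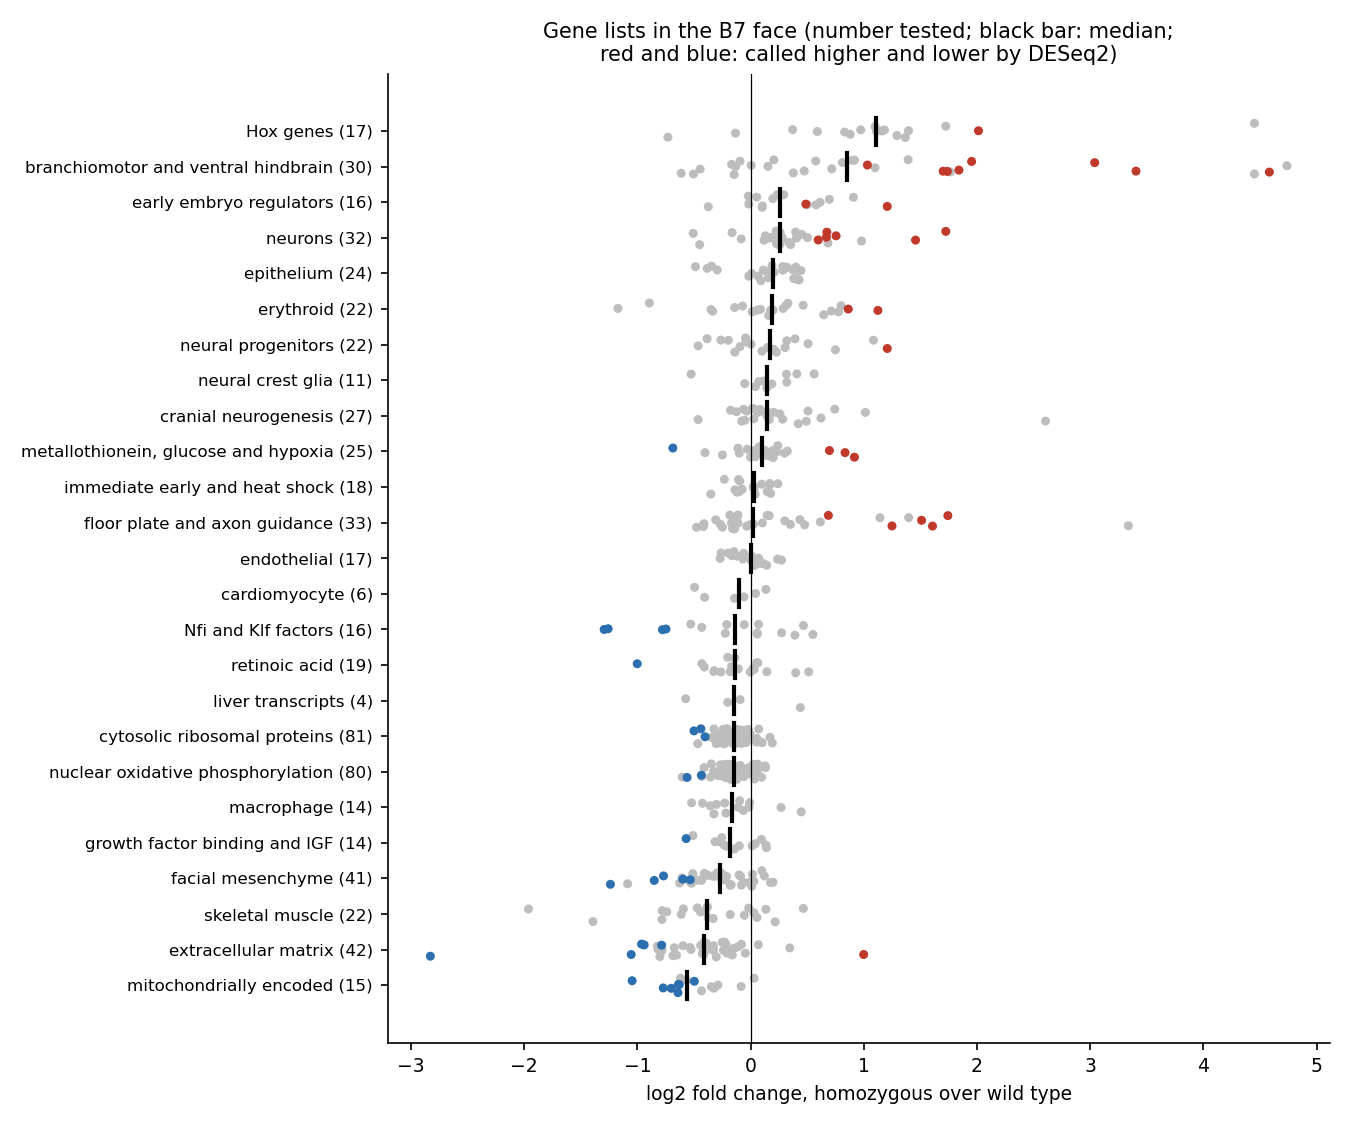
Log2 fold change, homozygous over wild type (horizontal axis), of the tested members of 25 gene lists (rows, number tested in parentheses), with the median as a black bar. Members called by DESeq2 are red where higher and blue where lower; the red points are most numerous among branchiomotor and ventral hindbrain genes (8 of 30) and the blue points among mitochondrially encoded genes (7 of 15).

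Whether the B7 effect differed from that of other boundary deletions was tested in a joint edgeR fit of the 16 faces, as the B7 log2 fold change minus the mean of those of B3, B5 and B6. It called 0 of 16092 genes (0%), while 1110 (6.9%) had an unadjusted p under 0.05, and the lowest adjusted p was 0.109, that of Tnn. On this scale the difference for Tnn was -3.17 (interval -4.14 to -2.20), for Osr1 -0.88 (-1.23 to -0.53), for Osr2 -1.70 (-2.43 to -0.97) and for Pitx1 -0.99 (-1.43 to -0.54), each with an adjusted p of 0.303 apart from Tnn. For Tbx20 it was 3.33 (1.48 to 5.17, adjusted p = 0.351), for Spon1 1.27 (0.61 to 1.93, 0.343), for Hbb-bh1 1.43 (0.73 to 2.13, 0.313) and for Hoxb3 3.93 (1.54 to 6.33, 0.44). Hoxb3 was at 0.0804 CPM in homozygous face 1 of B3 and 0.133 CPM in homozygous face 2 of B6, and without these 2 faces its difference was 3.25 (edgeR adjusted p = 0.566). For Neurog2 it was 0.12 (-1.05 to 1.30). No gene can be called particular to B7 by this test. In counts simulated for it, 70% of genes altered by 1 on the log2 scale and 91% of those altered by 2 were found. These counts too were drawn with edgeR's own estimates of the spread, and the shares may not hold for the real faces.

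The other lines show how far the same genes move in faces whose boundary B7 is intact. The log2 fold change of Hox genes had a median of 1.11 in B7, -2.12 in B3, -0.40 in B5 and -2.89 in B6. Single faces stood apart here, since the summed level of Hox genes was 4.83 CPM in homozygous face 1 of B3 and 3.78 CPM in homozygous face 2 of B6, against 24.8 to 129 CPM in the 14 other faces. Without these 2 faces the medians were -1.45 in B3 and -2.47 in B6. That of mitochondrially encoded genes was -0.57 in B7, -0.27 in B3, 0.02 in B5 and -1.09 in B6, and mt-Nd6 itself had a log2 fold change of -1.58 in B6. That of extracellular matrix genes was -0.41 in B7, -0.08 in B3, 0.09 in B5 and -0.50 in B6. For facial mesenchyme factors it was -0.27 in B7 against 0.05, 0.10 and 0.13 in B3, B5 and B6, and for hindbrain motor genes 0.86 against -0.29, 0.24 and -0.12. Neuron genes leaned higher in every line, with medians of 0.26 in B7 and 0.20, 0.13 and 0.11 in B3, B5 and B6. So did genes of cranial neurogenesis, at 0.14 in B7 and 0.18, 0.13 and 0.08 in B3, B5 and B6.

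Single faces place the B7 values in this spread, scaled over the 16 faces together. Tbx20 was at 7.57 and 7.53 CPM in the B7 homozygous faces and at 0.544 to 5.56 CPM (median 0.937) in the 12 faces of other lines. Hbb-bh1 was at 1009 and 951 CPM against 227 to 577 CPM, and Foxa2 at 5.25 and 4.47 against 0.712 to 3.53 CPM. In these 3 genes the B7 homozygous faces lay above every other face. For Spon1, 1 B5 homozygous face lay above both B7 ones, at 76.1 CPM. Of the genes lower in B7, Osr1 was at 27.3 and 29.4 CPM against 36.2 to 58.3 CPM in the 12 other faces, Osr2 at 7.36 and 9.08 against 10.5 to 39.1 CPM and Tnn at 0.412 and 0.473 against 1.38 to 6.05 CPM. These B7 values lay below every other face, whereas for mt-Nd6 both B6 homozygous faces were lower still. Neurog2 ranged from 4.48 to 17.3 CPM in the 12 other faces, and that range holds homozygous face 1 of B7 (17.2 CPM) and not homozygous face 2 (3.79 CPM).

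**Figure D5:**
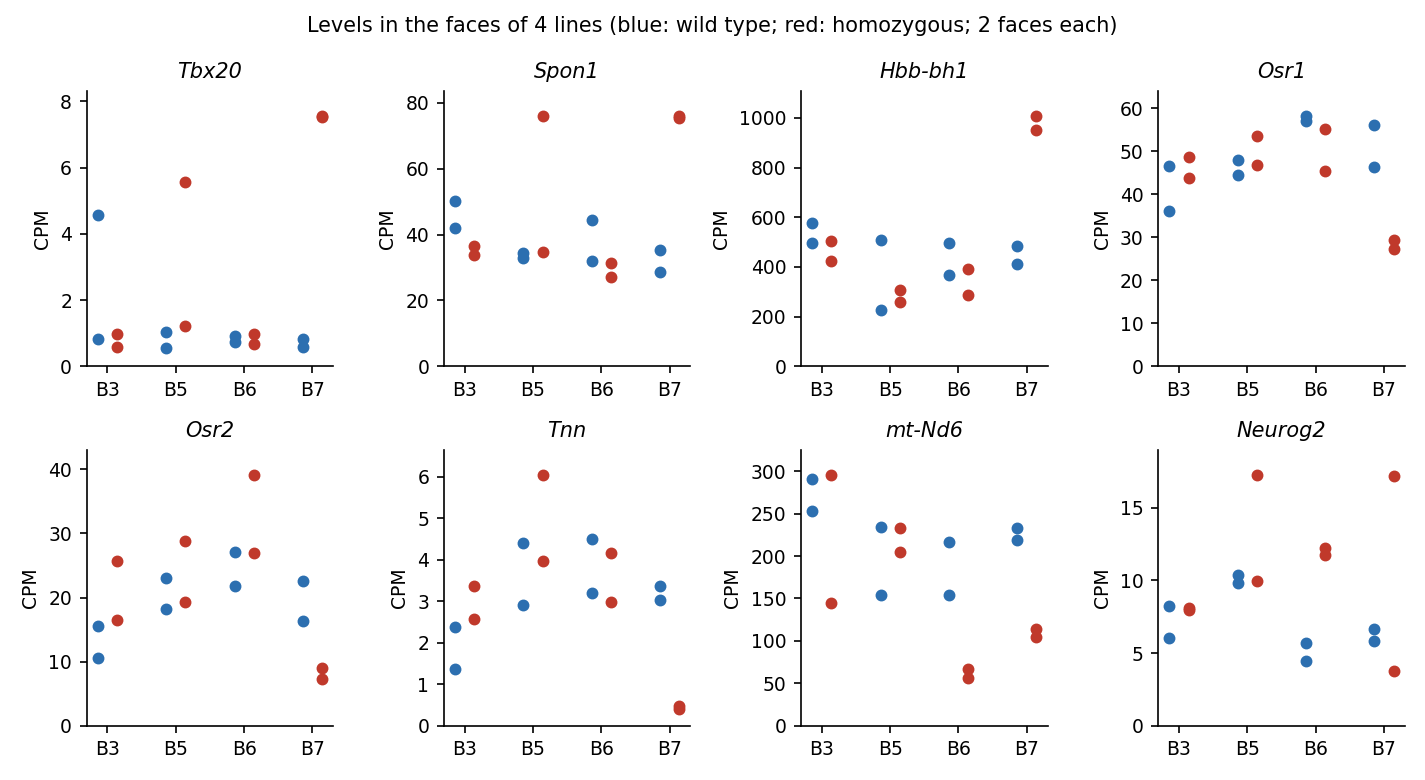
Level in CPM (vertical axes, from 0, scaled over 16 faces) of 8 genes in each wild-type (blue) and homozygous (red) face of lines B3, B5, B6 and B7. The B7 homozygous faces are the highest for Tbx20 and Hbb-bh1 and the lowest for Osr1, Osr2 and Tnn, while for Neurog2 they are at 17.2 and 3.79 CPM, near the ends of the range of the other faces.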

How the data were processed

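RNA-seq was analysed in the 4 faces of line B7 and, for comparison, in 12 faces of lines B3, B5 and B6. The authors deposited, per library, 69690 entries with expected counts, which RSEM estimated per gene and did not normalize, from paired reads of 150 bases mapped with STAR to mm10 over gencode M4 genes. TPM values, deposited by the authors beside them, are scaled by gene length and to a fixed sum, and served only to describe marker levels. FPKM, the study's Hi-C and the other tissues were not analysed here. The sources used here give the name of a single-end pipeline and do not say how strand was set. GENCODE M21, also on mm10, supplied gene names and positions for 42462 of 43346 Ensembl genes. Guide positions were found by matching the designed sequences to the RefSeq sequence of chromosome 3 of mm10, which also gave the flanking bases.

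Expected counts were rounded to whole numbers (17.3% of the non-zero values in B7 faces were not whole), filtered with filterByExpr, given TMM factors and compared, homozygous with wild-type, by the quasi-likelihood test of edgeR 4.0.16 (glmQLFTest) under R 4.3.3, with Benjamini-Hochberg adjustment over all genes tested. DESeq2 1.42.0, by its Wald test, was run on the same genes. Spearman correlations were 0.961 between both homozygous and both wild-type faces, which differed by more than sampling noise (chi-square per gene 13.1 and 11.0). The biological coefficient of variation was 11.5%. Intervals are at 95% and come from edgeR, as do standard errors and folds, except that a fold against a group at 0 is a bound from 3 counts over the group. Alternatives were DESeq2's likelihood-ratio test (the study names a test of this kind in DESeq), other scalings and filters, other samples in the fit, wider windows and leaving out each face. Robust and newer dispersion estimates of edgeR, and a fit without 2 faces of other lines that were low in Hox transcripts, were added after seeing the data. The procedure was tested on simulated counts.

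The genes named are those within 1 Mb of the deletion, Neurog2 among them, the up to 15 largest changes per direction and tool among called genes that have a proper symbol and groups that do not overlap, up to 4 called members of each of 25 lists with the 2 of highest CPM, and genes that check sex. Enpep, Gar1, Lef1 and Dkk2 were named after their values were seen, as were Nkx6-2, Ret, Ntn1 and Dlx1. Some genes, and a list that rests on one of them, are not reported here. The members and lists were chosen with earlier results of these data known.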

Additional observations from a re-analysis of the deposited data

How the results depend on the processing

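The count of calls depended on the filter, the tool and the samples that set the spread. In place of 5 genes in edgeR (4 higher, 1 lower), both DESeq2 tests called 89 (45 higher, 44 lower), edgeR without the filter on low counts 442 (207 higher, 235 lower; 434 of them pass the filter), the joint fit of 16 faces 0 (0 higher, 0 lower; 1206 at an unadjusted p under 0.05), and 8 wild-type faces as controls 1 (1 higher, 0 lower). Robust dispersions gave 8, with 2 lower, and both the stricter filter of 1 CPM and the newer dispersion estimate without the filter gave 2 lower. Without the filter, edgeR's prior degrees of freedom were infinite instead of 5.59, and with the newer estimate they were 6.25 and it called 7 genes. Leaving out each face gave 1 to 634 calls, 0 to 276 higher and 0 to 358 lower. The high counts came without homozygous replicate 2 (634) and replicate 1 (262), where the prior degrees of freedom were 56.9 and 162 and the lone homozygous face was assumed to vary like the wild-type ones. Within 1 Mb 1 gene, Neurog2, was called without the filter, and leaving out each face gave 0 to 1. The test against other lines called 290 genes in place of 0 without the filter. DESeq2 was not run for that test.

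Each value that reversed had not passed its test. Tifa was -0.033 and Xist 0.41 with 8 wild-type faces (1 in B5 and 1 in B6 expressed Y-linked genes), and against B6 alone the differences of Neurog2 and mt-Nd6 were -0.51 and 0.54. Leaving out each face gave ranges that cross 0 for Fam241a (-0.092 to 0.19), Ap1ar (-0.10 to 0.069), Neurog2 (-0.72 to 1.47; its difference -1.33 to 0.85), Zgrf1 (-0.034 to 0.31), Larp7 (-0.036 to 0.10), Ank2 (-0.20 to 0.11), Col3a1 (-0.33 to 0.015) and Hbb-y (-0.17 to 0.038). List medians moved by less than the spread between replicates with RLE factors and with TMM without mitochondrial, hemoglobin and ribosomal protein genes. Leaving out each face gave them the following ranges. For neural lists they were 0.074 to 0.19 (cranial neurogenesis), 0.59 to 1.02 (branchiomotor and ventral hindbrain), 0.044 to 0.16 (floor plate and axon guidance), 0.20 to 0.44 (neurons) and 0.49 to 1.95 (Hox genes). They were -0.34 to -0.22 for facial mesenchyme, -0.12 to -0.087 for Nfi and Klf factors, -0.22 to -0.010 for retinoic acid, 0.051 to 0.18 for metallothionein, glucose and hypoxia and -0.089 to 0.044 for immediate early genes. They were -2.11 to 0.30 for skeletal muscle, -1.43 to 0.30 for cardiomyocytes, -0.079 to 0.085 for endothelium, -0.42 to 0.077 for macrophages, -0.56 to -0.47 for mitochondrially encoded genes, -0.22 to -0.074 for oxidative phosphorylation and -0.24 to -0.044 for ribosomal proteins. Of 1244 values of 78 named genes under alternatives, 940 kept their direction and side of the threshold, 15 lost the call, 277 gained one and 12 reversed. The causes were not tested. No paired analysis was possible because the labels number no replicates; the numbers only follow the order of the samples.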
